A study of Mus musculus with 13 samples.

Results

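The back skin of mice was compared between the first hours of the light, when mice mostly rest, and the first hours of the dark, when they are active. Of the 13 pools in the series, 9 entered the comparison. The 5 early light pools were collected 2 h or 6 h after lights on (ZT2, ZT6, ZT26, ZT30 and ZT50, where ZT counts hours from the first lights on), and the 4 early dark pools at 14 h or 18 h (ZT14, ZT18, ZT38 and ZT42). The pools at 10 h (ZT10, ZT34) and 22 h (ZT22, ZT46) were left out of every test, and their levels are given only as values. The comparison covered the 21789 of 35557 array probes that carry 1 gene symbol, which stand for 19938 genes.

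Male C57Bl6 mice gave the whole back skin of both groups at postnatal day 30, when their hair follicles were growing (anagen). The mice lived in 12 h of light and 12 h of dark with free access to chow, so light, feeding and activity changed together, and the labels name no mutation or treatment in either group. Each pool joined RNA of 3 mice, 27 mice in all, and was measured on 1 Affymetrix whole-transcript array. The p-values therefore rest on how pools of a group differ, and differences among single mice cannot be seen. Each pool is a set of mice of its own, and the 6 h, 14 h and 18 h times have 2 pools each while 2 h has 3. Levels are linear intensities as deposited, and differences are early dark minus early light on log2(intensity + 16) with their standard error (SE).

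The circadian clock of skin cells is a loop of transcription factors. CLOCK and BMAL1 (gene Arntl) switch on the Period and Cryptochrome genes, whose proteins later block them, and a second arm of REV-ERB repressors (Nr1d1, Nr1d2) and ROR activators sets the level of Arntl. Through output factors such as DBP, TEF and HLF, and through hormones that follow the day, such as corticosterone, the clock reaches genes of metabolism, among them enzymes that oxidise or conjugate foreign compounds, and in skin it also bears on cell division and DNA repair.

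The arrays were alike, with correlations between any 2 of the 9 pools of 0.990 to 0.997 over all probes tested, but their low end differed between the groups. The lower quartile of intensity was 172 to 179.6 in the light pools and 183.6 to 191.8 in the dark pools (exact permutation test, two-sided, p = 0.00794, the smallest that 126 splits allow). In the pools not compared it was 187.1 and 162.8 at 10 h and 169.2 and 197.8 at 22 h. Arrays of the same hour thus also differed. Among the 5447 dimmest probes 86.1% lay higher in the dark pools, with a median difference of 0.13, and among the 5448 brightest 34.5%, with a median of -0.03. A count of small differences in one direction is therefore tied to the scaling. Keratins of the basal epidermis were near level, at 9079 to 10474 for Krt14 and 13851 to 15797 for Krt5 over the 9 pools. The summed intensity of 30 skeletal muscle markers ran from 64870 at ZT2 to 133700 at ZT30, both early light pools. Neither Krt14 nor a muscle gene passed the test.

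Of the genes higher in early dark, 4 encode enzymes of foreign compound metabolism, and 1 gene of lymphatic and 1 of blood vessels passed in opposite directions. In limma with Benjamini-Hochberg adjustment 10 probes passed an adjusted p under 0.05, which is 0.0459% of the probes tested. Of these, 8 were higher in early dark (0.0367%) and 2 lower (0.00918%), and at an unadjusted p under 0.05 there were 3470 and 848. The 8 higher ones were Cyp2f2, Lyve1, Angptl7, Gsta3, Fmo1, Fmo2, Dnah7c and Mir568, and the 2 lower ones Aplnr and the RIKEN clone 2700081O15Rik. In none of the 10 did a light pool overlap a dark pool, as was the case for 5.74% of all probes in the higher and 1.90% in the lower direction. After quantile normalization of the arrays these shares were 2.18% and 2.38%, and the unadjusted counts 1505 and 1227. Under median centring the shares were 2.61% and 5.64%, so the direction of the excess depends on the scaling. Quantile normalization gives all arrays the same distribution and so removes a broad shift whatever its source. The source of the excess was not tested. Of the 10 calls 8 were also made after quantile normalization. As whole skin was measured, fewer cells of a type and less RNA per cell cannot be told apart for any gene here.

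**Figure D1:**
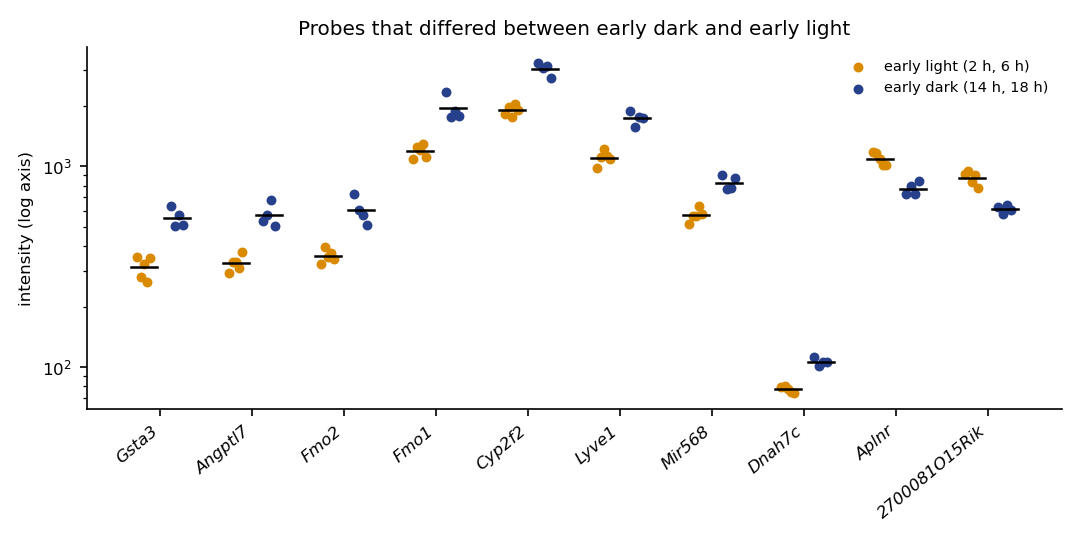
Intensity (log axis) of the 10 probes that passed the test, 1 point per pool, with 5 early light pools in orange and 4 early dark pools in blue; the black bar is the mean of each group. For each probe the 2 colours do not overlap, with Cyp2f2 the brightest of the higher genes and Dnah7c the dimmest.

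Cyp2f2, a cytochrome P450 known for oxidising naphthalene in the lung, had the smallest adjusted p. It measured 1812, 1961, 1751, 2039 and 1901 intensity units at ZT2, ZT6, ZT26, ZT30 and ZT50, and 3239, 3065, 3163 and 2731 at ZT14, ZT18, ZT38 and ZT42. Every dark pool was above every light pool, and the groups averaged 1893 ± 115 (SD, n = 5) and 3049 ± 224 (SD, n = 4). The gene rose, with a difference of 0.68 ± 0.07 (limma adjusted p = 0.00667). Its level was already 2786 and 2708 at 10 h on the days of sampling, before lights off, and 2357 and 2783 at 22 h.

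The flavin monooxygenases Fmo1 and Fmo2, enzymes that oxidise nitrogen and sulphur atoms of drugs and other foreign compounds, rose by similar amounts. In the same order of pools, Fmo1 measured 1078, 1243, 1201, 1289 and 1105 in early light and 2347, 1751, 1882 and 1776 in early dark. The dark pools lay apart from the light ones and ZT14 was the highest, and the difference was 0.70 ± 0.09 (limma adjusted p = 0.0183). Fmo2 was dimmer, at 325, 397, 352, 371 and 343 in light and 729.7, 607, 570.3 and 511 in dark. It too was highest at ZT14, and its difference was 0.72 ± 0.09 (limma adjusted p = 0.0183). As with Cyp2f2, the 10 h pools were on the dark side of the light pools, at 1917 and 1733 for Fmo1 and 471 and 506 for Fmo2.

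Gsta3, a glutathione S-transferase that couples reactive compounds to glutathione, measured 352, 279, 324, 266 and 350.2 in the light pools and 629.6, 503, 574 and 508 in the dark pools. All 4 dark pools were above all 5 light pools, and the difference of 0.79 ± 0.10 (1.73-fold, limma adjusted p = 0.0161) was the largest of the 10. Unlike the 3 oxidising enzymes, Gsta3 was not yet high at 10 h (382 and 329.8), and 1 of the 22 h pools stood far above all others (439 at ZT22 and 1272 at ZT46). The same ZT46 pool had the highest albumin (Alb) signal, 10035 against 1027 to 4435 in the 9 pools compared. Among the 20 measured hepatocyte markers, a list of genes of liver cells, none passed the test. Of the 20, 19 lay above 0, and the median was 0.18 (17 and 0.12 after quantile normalization). Their summed intensity overlapped between groups, at 12922 to 19439 in light and 13630 to 22006 in dark. The list median was -0.09 for day 1 and 0.34 for day 2 (ZT50 left out), while Gsta3 differed by 0.81 and 0.84. The part of liver cell RNA in the Gsta3 result was not tested.

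Cyp2f2, Gsta3, Fmo1 and Fmo2 belong to the list of foreign compound and aldehyde metabolism, of whose 35 genes 33 were measured. The list was drawn up with earlier results of these data known. Its 4 calls were all higher in early dark. Over all 33 members the median difference was 0.06, against 0.02 over all probes tested, and 23 lay above 0, so the list's median was small beside the differences of its called members. The member with the largest difference was Cyp2e1, a cytochrome P450 of liver and fat, which measured 833, 977, 357, 776 and 540.3 in light and 2143, 922, 1529 and 954 in dark. Its groups overlapped and it did not pass (0.97 ± 0.29, limma adjusted p = 0.124), and it is named after its values were seen. A further 3 members did not overlap between the groups, and they are named here after their values were seen. The aldehyde dehydrogenases Aldh1a1, which makes retinoic acid, and Aldh3a1 differed by 0.53 ± 0.10 (limma adjusted p = 0.0987) and 0.48 ± 0.09 (0.0948), and the cytochrome P450 Cyp2d22 by 0.24 ± 0.06 (0.0987). None of these 3 passed. That makes 7 of 33 members without overlap in the higher direction (21.2%, against 5.74% of all probes) and 8 of 33 (24.2%, against 2.18%) after quantile normalization, when 1 was lower (3.03%, against 2.38%).

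The sequences before the start sites of Cyp2f2 and Fmo2 are shown as examples, Cyp2f2 because it had the smallest adjusted p and Fmo2 because its second window alone, of the 6 windows that RefSeq (GRCm38.p6) gives for the 8 higher probes, held 1 of the motifs searched. The windows searched hold 300 bases, 250 before the start and 50 after, and the 250 before the start are printed 5′ to 3′ on the gene's strand. A search on both strands covered 6 motifs. These were the E-box CACGTG and its variant CACGTT, both bound by CLOCK and BMAL1, the D-box TTATGTAA of the DBP family, the ROR element, the glucocorticoid receptor's ACANNNTGT and the cAMP element TGACGTCA. Of all 32851 windows of that length 7.15%, 4.68%, 0.938%, 0.219%, 6.85% and 1.79% hold them. The second of the windows of Fmo2 (chr1:162898494-162898743, minus strand) holds CACGTT 23 bases before the start, in capitals, and the window of Cyp2f2 (chr7:27119705-27119954, plus strand) holds none of the 6 motifs, nor do the first window of Fmo2 and those of Gsta3, Angptl7 and Dnah7c.
Cyp2f2: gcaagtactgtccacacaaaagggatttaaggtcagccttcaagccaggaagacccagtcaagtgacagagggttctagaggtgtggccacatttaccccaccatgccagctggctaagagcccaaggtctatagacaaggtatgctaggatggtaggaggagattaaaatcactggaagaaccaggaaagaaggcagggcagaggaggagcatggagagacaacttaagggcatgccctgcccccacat
Fmo2: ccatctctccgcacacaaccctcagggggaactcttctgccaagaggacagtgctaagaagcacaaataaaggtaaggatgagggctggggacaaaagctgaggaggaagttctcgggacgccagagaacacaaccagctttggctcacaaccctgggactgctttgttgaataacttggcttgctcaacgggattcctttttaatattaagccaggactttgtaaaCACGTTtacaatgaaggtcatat
A match is a description of letters, and no binding was measured here.

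Lyve1, a hyaluronan receptor of lymphatic endothelium that some macrophages also carry, measured 978, 1106, 1222, 1116 and 1086 in light and 1884, 1572, 1763 and 1729 in dark, with no overlap. It rose 1.57-fold (0.65 ± 0.07, limma adjusted p = 0.0123). Outside the hours compared it was near the light level, at 1126 and 1284 at 10 h and 1254 and 1304 at 22 h, so only the 4 early dark pools of all 13 exceeded 1304.

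The other lymphatic markers did not pass. Prox1 and Flt4, the transcription factor and the VEGFC receptor that define lymphatic endothelium, differed by -0.03 ± 0.06 and 0.04 ± 0.08. Mmrn1 differed by 0.34 ± 0.12 and Stab2, another hyaluronan receptor, by 0.21 ± 0.07. Of 7 measured markers 5 lay above 0 (4 after quantile normalization, and 4 after centring each array on its median), and none was at 0 intensity. The summed intensity of the 6 markers other than Lyve1 overlapped, at 2864 to 3014 in light and 2787 to 3325 in dark, while the sum with Lyve1 was 3870 to 4235 in light and 4550 to 5210 in dark. Macrophage and dendritic cell markers had a median of -0.03, with 7 of 18 above 0 and none called. The part of the number of lymphatic cells in the Lyve1 result was not tested beyond these values.

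Aplnr, the receptor of the peptide apelin on blood vessel endothelium, ran the other way. It measured 1175, 1156, 1084, 1009 and 1006 in light and 724, 797, 724 and 847 in dark, each dark pool below each light pool. The gene fell to 0.72 of its light level (difference -0.48 ± 0.07, limma adjusted p = 0.0411). It was already below every light pool at 10 h, before lights off, at 851 and 858. Its 22 h pools were back among the light pools at 1056 and 1077. The adjusted p was 0.0567 after quantile normalization, so that call depends on the scaling. Of 14 blood endothelium markers Aplnr was the only one that passed, and Pecam1 and Cdh5 of the same list differed by -0.04 ± 0.09 and -0.16 ± 0.07. The list's median was -0.05.

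Angptl7, a secreted protein of the angiopoietin-like family, measured 295, 333, 334, 312 and 372 in light and 533, 571, 676 and 504 in dark. The highest pool was ZT38, no pools overlapped, and the gene rose 1.70-fold (0.76 ± 0.09, limma adjusted p = 0.0123). Like the oxidising enzymes it was already at 511 and 527 at 10 h.

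The remaining calls were fainter or less certain in identity. Dnah7c, an axonemal dynein heavy chain, was among the dim probes, at 79.3, 80.7, 78.0, 74.7 and 74.6 in light and 113, 101, 105 and 106 in dark (difference 0.39 ± 0.05, limma adjusted p = 0.0217). It lies in the range of intensity where most probes were higher in the dark arrays, and its adjusted p was 0.157 after quantile normalization. The probe annotated to the microRNA gene Mir568 measured 514, 564, 567, 631 and 577 in light and 899, 768, 775 and 870.4 in dark (0.52 ± 0.07, limma adjusted p = 0.0217), again without overlap. The clone 2700081O15Rik measured 916, 947, 835, 904 and 776 in light and 629, 575, 643 and 603 in dark, and it fell (difference -0.50 ± 0.07, limma adjusted p = 0.0217). Whether the Mir568 signal comes from the microRNA or from a longer transcript over the locus was not tested. Its mature sequence (RefSeq, GRCm38.p6, chr16:43640665-43640684, plus strand) is shown with the seed, bases 2 to 8, in capitals.
mmu-miR-568: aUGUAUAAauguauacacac

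Leaving out 1 pool at a time gave between 2 and 9 calls, of which 2 to 7 were among the 10. There were 4 without ZT2, 6 without ZT6, 5 without ZT14, 2 without ZT18, 3 without ZT26, 9 without ZT30, 4 without ZT38, 6 without ZT42 and 6 without ZT50. Cyp2f2 and Lyve1 passed in all 9 of these fits and Angptl7 in 8, all but the one without ZT18. Gsta3 passed in 5, Fmo1 and Fmo2 in 4, Mir568 and 2700081O15Rik in 1, and Aplnr and Dnah7c in 0. With day as a block and without ZT50, 7 probes passed, of which Cyp2f2, Lyve1, Angptl7, Gsta3 and 2700081O15Rik were among the 10, and Vat1 and Gm4981 were not. Fmo1 (limma adjusted p = 0.0598), Fmo2 (0.0570), Aplnr (0.0598), Dnah7c (0.0598) and Mir568 did not pass in that fit.

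Clock repressors differed in size and direction, and none of the 11 passed as the groups were compared. Cry1, which encodes a repressor of CLOCK and BMAL1, came closest. It measured 463, 494, 510.4, 529.9 and 496 in light and 607, 699, 663 and 640.1 in dark, with every dark pool above every light pool. The difference was 0.38 ± 0.06 (limma adjusted p = 0.065), and Cry1 passed when only genes at or above the 25th or the 50th percentile of intensity were tested. After quantile normalization its limma adjusted p was 0.116. Its 2 h and 6 h levels were close together, as were its 14 h and 18 h levels. Outside the hours compared Cry1 measured 576 and 557 at 10 h and 720 and 561 at 22 h, with ZT22 the highest of all pools.

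Per2, its partner in the repressor complex, measured 438, 617, 366, 581 and 423 in light and 952, 779, 1067 and 708 in dark. Dark pools were again all higher, but Per2 ran up from 2 h to 6 h and down from 14 h to 18 h on both days, so that the spread within each group was wide. The difference was 0.84 ± 0.16 (limma adjusted p = 0.0948). Nr1d1, the repressor of Arntl, measured 3282, 4715, 1898, 3613 and 1790.3 in light and 1266, 758, 1627 and 895 in dark, so that the lowest light pool (ZT50) and the highest dark pool (ZT38) were only 1790.3 and 1627. With a difference of -1.38 ± 0.29 it did not pass (limma adjusted p = 0.0987) in spite of a light level 2.60 times the dark level.

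**Figure D2:**
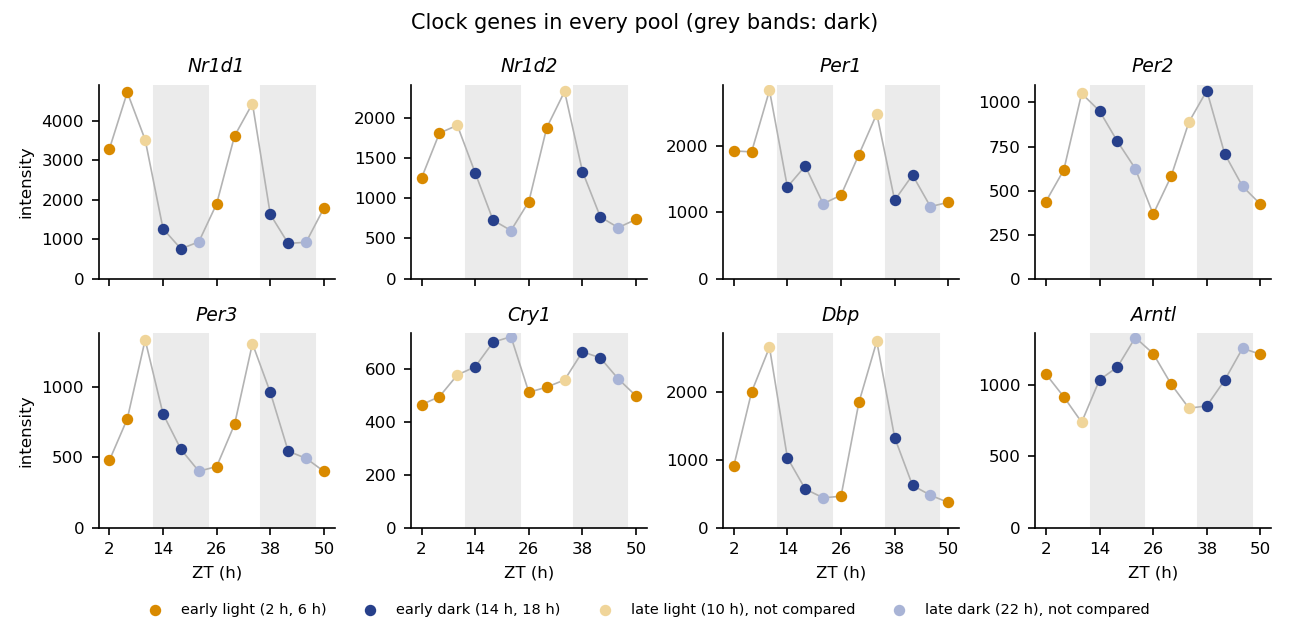
Intensity of 8 clock genes in all 13 pools against ZT in hours, with grey bands for the dark; strong colours are the pools compared and pale colours the 10 h and 22 h pools, which entered no test. Cry1 was high in all 4 early dark pools, while Per3, Nr1d2 and Dbp crossed between 2 h and 6 h and between 14 h and 18 h, so that their 2 groups overlap.

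The other 8 repressors overlapped between the groups. Per3 measured 478, 773, 434, 734 and 399.8 in light and 808, 557, 962 and 544 in dark, so that its 6 h and 14 h pools were high and its 2 h and 18 h pools low (difference 0.35 ± 0.22). Nr1d2, the close relative of Nr1d1, had the same shape, with 1250.4, 1807, 958, 1874 and 738 in light and 1313, 727, 1329.5 and 767 in dark (difference -0.32 ± 0.28). The differences were -0.13 ± 0.16 for Per1, 0.14 ± 0.07 for Cry2, -0.11 ± 0.06 for Nfil3, 0.01 ± 0.11 for Bhlhe40 and -0.02 ± 0.10 for Bhlhe41. Ciart gave 0.13 ± 0.13 on its brighter probe and -0.02 ± 0.13 on the other. Of the 11 repressors 2 were higher without overlap (18.2%, against 5.74% of all probes) and 1 lower (9.09%, against 1.90%), and their median of 0.01 turned to -0.04 under median centring.

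Of the clock activators 5 of 7 were measured and none passed or lay apart. Arntl measured 1078, 918, 1221, 1008 and 1216 in light and 1037, 1127, 854 and 1035 in dark, with overlapping groups (difference -0.10 ± 0.10), and the pools left out of the comparison measured 1334 and 1259 at 22 h and 739.7 and 838 at 10 h. Its partner Clock differed by 0.08 ± 0.07, Arntl2 by 0.07 ± 0.07, and the ROR genes Rora and Rorb by 0.08 ± 0.08 and 0.13 ± 0.06. Among 17 measured clock kinases and ubiquitin enzymes none passed, and their differences ran from -0.13 to 0.09.

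Cry1 and Per3 are shown by sequence because Cry1 levels were close between the hours of each compared phase, while Per3 levels crossed within it. The promoter window of Cry1 (chr10:85185055-85185304 for the 250 bases printed, minus strand) holds the E-box CACGTG 60 bases before the start and the variant CACGTT on the opposite strand, read as AACGTG, 79 bases before it. That of Per3 (chr4:151044666-151044915, minus strand) holds 2 copies of the D-box TTATGTAA, 205 and 158 bases before the start. The motifs are in capitals and do not overlap. CACGTG also occurs in windows of Tef and of Ciart (3 copies), Per1 and Bhlhe41, and the groups of these last clock repressors overlapped. CACGTT also occurs in windows of Nr1d1, Cry2 and Rorb. A link between a motif and the course over the hours was not tested.
Cry1: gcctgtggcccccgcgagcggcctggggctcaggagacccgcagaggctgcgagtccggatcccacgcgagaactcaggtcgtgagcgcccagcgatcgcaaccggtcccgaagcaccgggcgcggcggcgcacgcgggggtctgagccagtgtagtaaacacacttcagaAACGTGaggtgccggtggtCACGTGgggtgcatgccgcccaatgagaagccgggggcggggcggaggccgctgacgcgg
Per3: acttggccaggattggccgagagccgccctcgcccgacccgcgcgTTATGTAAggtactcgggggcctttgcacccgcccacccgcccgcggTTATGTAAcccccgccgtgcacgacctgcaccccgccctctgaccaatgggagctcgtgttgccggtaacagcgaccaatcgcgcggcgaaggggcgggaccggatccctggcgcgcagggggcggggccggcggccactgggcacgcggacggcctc

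Levels were also compared between the hours of 1 phase. From 2 h to 6 h 0 probes passed in limma (0% of those tested), and 567 had an unadjusted p under 0.05. That is fewer than the 1089 that chance gives at this p in each comparison. The smallest adjusted p was 0.403. That value belonged to Per3, whose 6 h pools (773 and 734) were all above its 2 h pools (478, 434 and 399.8), a difference of 0.77 ± 0.10. Dbp, the output factor, measured 1995 and 1839.5 at 6 h and 903, 461 and 369 at 2 h, a difference of 1.81 ± 0.29. The values for Nr1d2, Nr1d1 and Per2 were 0.93 ± 0.17, 0.88 ± 0.24 and 0.54 ± 0.10. In the lower direction the smallest p were those of the dim probes Pou4f3 (-0.37 ± 0.08) and Prl3a1 (-0.47 ± 0.11).

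From 14 h to 18 h the same clock genes had the opposite sign. Again 0 probes passed in limma (0%), with 414 at an unadjusted p under 0.05, fewer than the 1089 that chance gives. Per3 measured 808 and 962 at 14 h and 557 and 544 at 18 h, a difference of -0.67 ± 0.11. Dbp gave -0.96 ± 0.31, Nr1d2 -0.81 ± 0.18, Nr1d1 -0.79 ± 0.26 and Per2 -0.43 ± 0.11. Mrap, the accessory protein of the ACTH receptor, measured 622 and 551 at 14 h and 409 and 402 at 18 h (-0.51 ± 0.10). The smallest p in the higher direction were those of the dim probes Defb7, a beta-defensin (0.70 ± 0.13), and Ms4a19 (0.54 ± 0.10). The number of calls stayed between 0 and 2 when 1 pool was left out. From 2 h to 6 h it was 2 without ZT2 and 1 without ZT30, and from 14 h to 18 h 2 without ZT38 and 1 without ZT42, where the lone pool left at an hour is assumed to vary like the others.

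**Figure D3:**
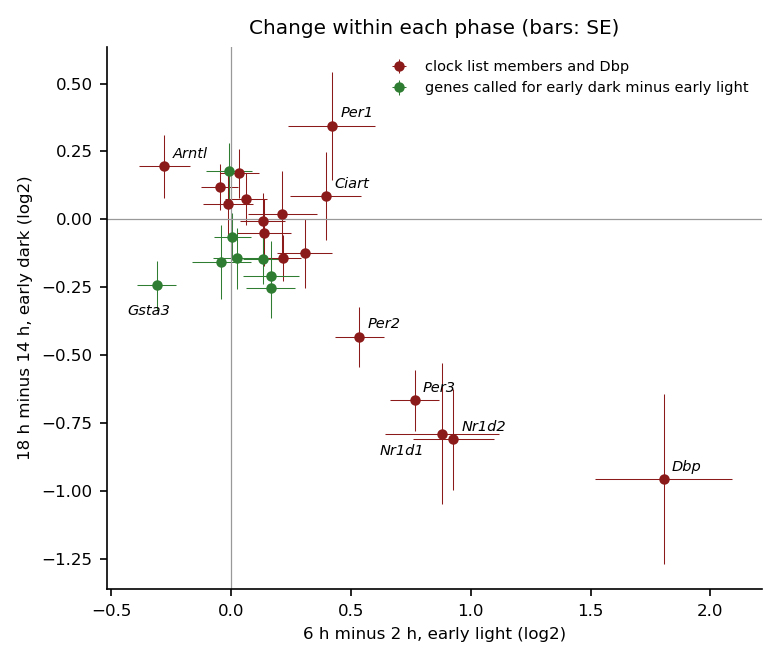
Change from 2 h to 6 h (x axis, log2) against change from 14 h to 18 h (y axis, log2), with SE bars, for the 16 clock list members and Dbp (red) and the 8 named genes that passed between the phases (green). Dbp, Nr1d1, Nr1d2, Per3 and Per2 lie at the lower right, while the green genes, which were chosen by a test against the spread within the phases, lie between -0.31 and 0.17 on the x axis.

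The test that chose the called genes weighs them against the spread within each phase, so small differences within the phases are fixed by that choice and are given as a description. Over the 8 named ones the 6 h minus 2 h difference ran from -0.31 (Gsta3) to 0.17 (Fmo2), and the 18 h minus 14 h difference from -0.25 (Fmo1) to 0.18 (Aplnr), against differences of 0.39 to 0.79 in size between the phases. Giving each of the 4 hours a level of its own takes that movement out of the error. The mean of 14 h and 18 h was then set against the mean of 2 h and 6 h, and limma again called 8 higher (0.0367%) and 2 lower (0.00918%), of which 7 were among the first 10. Per2 (0.79 ± 0.07, adjusted p = 0.00591), Nr1d1 (-1.47 ± 0.18, 0.0198) and Thrsp (1.16 ± 0.14, 0.0198) passed in this fit, and Aplnr, Dnah7c and Mir568 did not. Cry1 had an adjusted p of 0.138. The same 10 passed when this fit was made on quantile normalized values.

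Thrsp, a nuclear protein that promotes fat synthesis, measured 440.0, 598, 374, 384 and 494 in light and 1665, 808, 1218 and 715 in dark. All dark pools were higher and the 14 h pools highest, and the difference of 1.18 ± 0.22 did not pass across the groups (limma adjusted p = 0.0948) but did with hours as levels, as given above. Of 24 measured genes of cholesterol and fatty acid synthesis none passed across the groups and Thrsp alone was higher without overlap (4.17%, against 5.74% of all probes). Fasn, the fatty acid synthase, differed by 0.22 ± 0.08 and Elovl6, which lengthens fatty acids, by 0.21 ± 0.08. The list's median was 0.05, and -0.01 under median centring.

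Of the fasting and feeding list 25 of 26 genes were measured and none passed. Pck1, an enzyme of glucose and glycerol synthesis, measured 933, 810.5, 769, 871 and 770.2 in light and 475, 723, 633 and 738 in dark, each dark pool lower (-0.38 ± 0.12, limma adjusted p = 0.124), and was highest at 10 h (1061 and 1168). The thioesterase Acot2 differed by 0.30 ± 0.09 and the glucose transporter Slc2a4 by 0.21 ± 0.07. The larger difference of Pdk4, which holds back glucose oxidation, had a wide spread, with 1628, 1342, 2093, 1625 and 1109.9 in light and 767, 853, 584 and 2184 in dark and overlap through ZT42 (-0.66 ± 0.31, limma adjusted p = 0.255). Pck1 and the thioesterase Acot1 (-0.17 ± 0.07) were the 2 of 25 that were lower without overlap (8%, against 1.90% of all probes). Pdk4 and Acot1 were picked with their values in view. The list's median was -0.02.

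Among 21 measured PAR bZIP factors and other clock outputs Fmo2 passed, and the median was 0.07. Of the 21, 4 were higher without overlap (19.0%, against 5.74% of all probes), and 3 after quantile normalization (14.3%, against 2.18%). The cilium protein gene Cys1 measured 254, 276, 239, 248 and 258 in light and 375, 289, 349.8 and 307 in dark (0.35 ± 0.08, limma adjusted p = 0.0987), and Lonrf3 differed by 0.26 ± 0.07. Dbp itself overlapped fully between the groups (-0.10 ± 0.47), with its 6 h and 14 h pools high and its 2 h and 18 h pools low.

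Glucocorticoid-induced genes, listed because corticosterone follows the day, gave no call. Of 26 measured 11 lay above 0 and the median was -0.02, while 4 were higher without overlap (15.4%, against 5.74% of all probes) and 1 lower (3.85%, against 1.90%). After quantile normalization these counts were 3 (11.5%, against 2.18%) and 0 (against 2.38%). Sult1a1, a sulphotransferase, measured 384, 404, 379, 395 and 378 in light and 564, 455, 484 and 523 in dark (0.37 ± 0.07, limma adjusted p = 0.0948). Fkbp5, the chaperone that damps the glucocorticoid receptor, measured 488, 498, 427, 468 and 422 in light and 813, 641, 552 and 515 in dark, highest at ZT14 (0.42 ± 0.11, 0.104). Both had every dark pool above every light pool. Lcn2, lipocalin of inflamed epithelium, differed by 0.25 ± 0.05 without overlap.

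Genes of cell division gave no call. Of 30 measured G1/S and DNA replication genes none lay apart, with differences from -0.08 to 0.11 and a median of 0.01 (-0.04 under median centring). Mcm4, of the replicative helicase, differed by 0.10 ± 0.07. Of the 29 measured G2/M and mitosis genes 1 was lower without overlap (3.45%, against 1.90% of all probes), and 2 after quantile normalization (6.9%, against 2.38%). The list's median was -0.08, below 0 under each scaling, with none passing. The sign depended on the day, with a list median of 0.04 for day 1 and -0.19 for day 2 (ZT50 left out). Both extremes of the list's summed intensity were early dark pools, 47902 at ZT14 and 39236 at ZT38. Aurka, a kinase of the mitotic spindle, measured 988, 889.9, 960.1, 905 and 845 in light and 848, 864, 757 and 762 in dark with overlap (-0.18 ± 0.07, limma adjusted p = 0.167), and Ube2c and Cdc25b, which drive exit from and entry into mitosis, differed by -0.14 ± 0.06 and -0.15 ± 0.06. Of 17 cell cycle brakes none passed. Cdkn1c, a cyclin-dependent kinase inhibitor, alone was higher without overlap (0.21 ± 0.06). That is 5.88% of the list, against 5.74% of all probes. The clock-controlled kinase Wee1 differed by 0.20 ± 0.09.

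Genes of DNA repair and energy metabolism gave no call either. Of 20 nucleotide excision repair genes 4 lay above 0 (6 after quantile normalization), with a median of -0.05. Rad23b, which stabilises the damage sensor XPC, measured 5725, 5669.7, 5745, 5120.2 and 5705 in light and 4897, 4487, 5027 and 4969 in dark, all dark pools lower (-0.21 ± 0.06, limma adjusted p = 0.115), and Xpa differed by -0.13 ± 0.06. Rad23b alone of the 20 was lower without overlap (5%, against 1.90% of all probes). Of 34 oxidative phosphorylation genes 5 lay above 0 and the median was -0.05. Lower without overlap were 3 (8.82%, against 1.90% of all probes), and 2 after quantile normalization (5.88%, against 2.38%), with Uqcrb of complex III among the 3 (-0.20 ± 0.06, limma adjusted p = 0.11). These lists sit in the brighter part of the array, with mean log2 levels in light of 10.02 for repair and 11.47 for oxidative phosphorylation, where the medians over all probes of like intensity were -0.02 and -0.03. Of 21 oxidant defence genes Cat, the catalase, alone was higher without overlap (0.13 ± 0.06). That is 4.76% of the list, against 5.74% of all probes. The 16 glycolysis genes had a median of -0.03 with none passing.

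Stress and immune lists held single genes apart and no calls. Cirbp, the cold-inducible RNA-binding protein, measured 1006, 1022, 1133, 1047 and 991 in light and 878, 887, 639.6 and 960.1 in dark, all dark pools lower and ZT38 lowest (-0.31 ± 0.10, limma adjusted p = 0.135). The 19 heat shock and cold-inducible genes had a median of 0.07, with Hsp90aa1 at 0.23 ± 0.10. Cirbp alone of the 19 was lower without overlap (5.26%, against 1.90% of all probes). The interferon regulators Irf7 and Irf9 were lower without overlap (-0.20 ± 0.06 and -0.21 ± 0.06) and Mx1, a dim probe, higher (0.15 ± 0.05), in a list of 20 with a median of -0.01. That is 2 lower (10%, against 1.90% of all probes) and 1 higher (5%, against 5.74%). After quantile normalization 2 were lower (10%, against 2.38%) and 0 higher (against 2.18%). The list then had 4 members above 0 and a median of -0.07. Of 31 chemokines and cytokine receptors 4 were higher without overlap (12.9%, against 5.74% of all probes), the attractant Ccl17 (0.29 ± 0.07) and the receptor Ccr6 (0.30 ± 0.08) among them, and 1 was lower (3.23%, against 1.90%), the interleukin receptor Il4ra (-0.15 ± 0.06). After quantile normalization 1 was higher (3.23%, against 2.18%) and 1 lower (3.23%, against 2.38%). Of 27 immediate early genes none passed, with Junb at -0.28 ± 0.09.

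Markers of the cell types of skin gave no calls beyond Lyve1 and Aplnr. Mast cell markers lay above 0 in 9 of 10 (8 after quantile normalization), with a median of 0.16 and sums of 7554 to 8352 in light and 8249 to 10013 in dark. The mast cell protease Cpa3 measured 2019, 2369, 2209, 2271 and 1954 in light and 3301, 2807, 2447 and 2685 in dark, without overlap (0.37 ± 0.09, limma adjusted p = 0.0987). With Cpa3, 2 of the 10 were higher without overlap (20%, against 5.74% of all probes), and 1 after quantile normalization (10%, against 2.18%). Adipocyte markers had a median of 0.13 over 18. The uncoupling protein gene Ucp1, a dim probe, alone was higher without overlap (0.30 ± 0.06), which is 5.56% of the list, against 5.74% of all probes. The 15 sebaceous gland markers had a median of 0.09, with the wax synthase Awat2 at 0.34 ± 0.12. Basal epidermis (13 markers), differentiated epidermis (21) and the keratins of hair shaft and inner root sheath (17) had medians of -0.01, 0.02 and -0.05. These were 0.01, 0.02 and -0.06 after quantile normalization and -0.06, -0.04 and -0.11 under median centring. The 3 measured erythroid markers had a median of -0.13. Melanocyte markers had a median of -0.03 over 12 and hair matrix regulators -0.02 over 15, none passing. The medians of several lists depended on the scaling. As deposited, after quantile normalization and under median centring they were 0.11, 0.03 and 0.06 for T and NK cells, 0.08, -0.01 and 0.03 for neutrophils, 0.10, 0.01 and 0.04 for Schwann cells, 0.06, 0.07 and 0.00 for the outer root sheath, 0.00, 0.01 and -0.05 for dermal fibroblasts, and -0.05, -0.05 and -0.11 for muscle. With the muscle marker mean as a covariate all 10 probes still passed, and 11 in all.

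**Figure D4:**
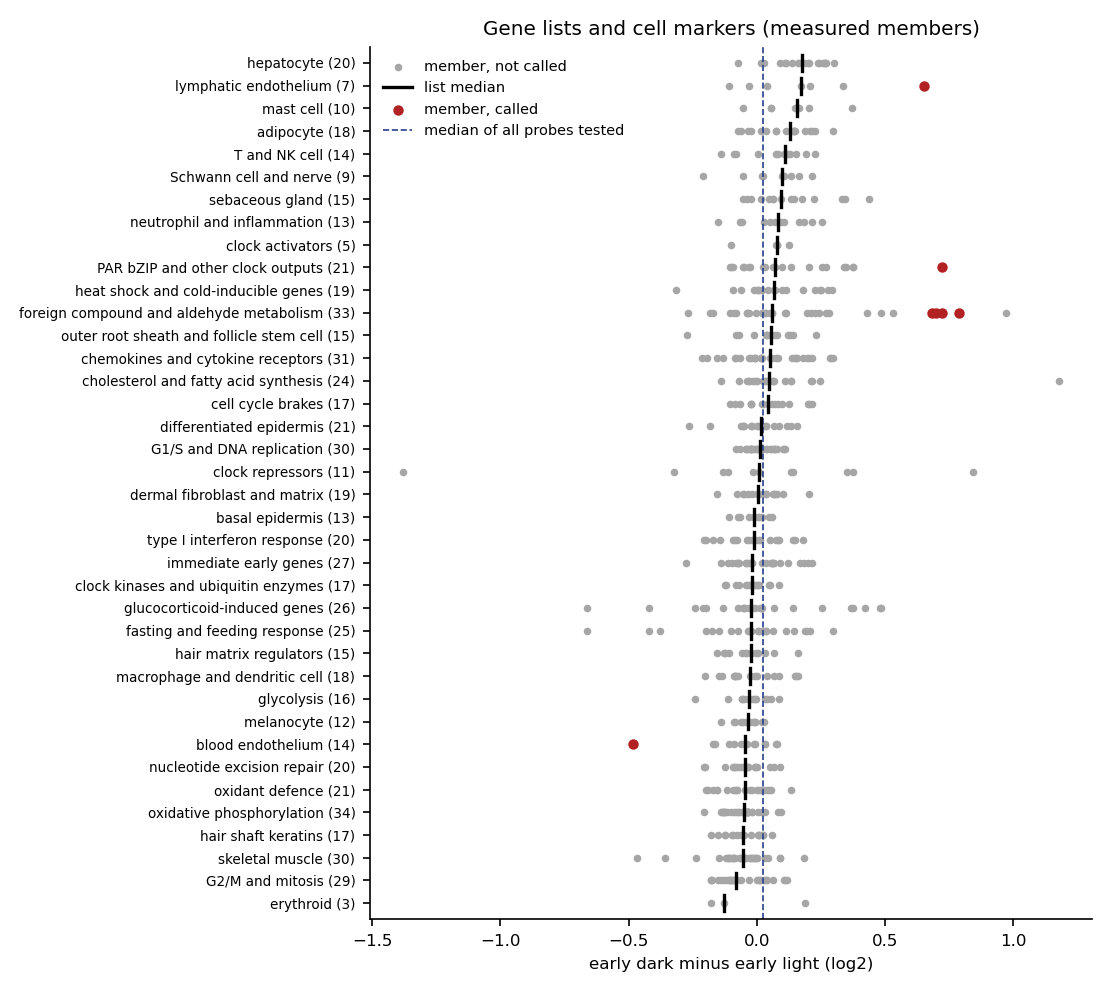
Difference of early dark minus early light (log2) for each measured member of the 38 gene and marker lists, ordered by list median (black bar); members that passed are red, and the dashed line is the median of all probes tested, 0.02. The calls lie in 4 lists, with those of foreign compound metabolism furthest right; Fmo2 is in 2 of them.

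The lower direction held few calls, so the next genes by p are given, none of which passed (limma adjusted p of 0.0903 to 0.0987). Chil1, a chitinase-like secreted protein, measured 1149.7, 1243, 1165, 1133 and 1039.8 in light and 879, 948, 880.3 and 833 in dark, with no overlap (-0.37 ± 0.06). Chp2, a calcineurin B-like regulator of proton exchange, measured 324, 294, 350.4, 346 and 338 in light and 226, 236, 237 and 288 in dark, again apart (-0.40 ± 0.08). Eif4a3, the helicase of the exon junction complex, differed by -0.32 ± 0.06, the mitochondrial ribosomal protein gene Mrpl54 by -0.42 ± 0.09, Pdap1 by -0.27 ± 0.05 and Ubxn1 by -0.29 ± 0.06. Nr1d1, described above, was the other gene of this kind.

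The differences were also taken within each day, with 2 light and 2 dark pools on each and ZT50 left out. The 10 called probes kept their sign on both days, as the lack of overlap fixes. Cyp2f2 differed by 0.74 on day 1 and 0.63 on day 2, Lyve1 by 0.72 and 0.57, Gsta3 by 0.81 and 0.84, and Fmo2 by 0.86 and 0.56. Nr1d1 differed by -1.99 and -1.11, and the change between days was 0.88 ± 0.53.

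In limma 0 probes passed for a change of the difference between days (0%), while 3937 had an unadjusted p under 0.05. The smallest adjusted p was 0.0901, for Aldh1l2, a mitochondrial folate enzyme, whose difference was 0.06 on day 1 and -1.19 on day 2. C1qtnf3, a secreted adipokine, went from 0.56 to -0.35, Fcrlb from -0.27 to 0.64 and Plppr1 from -0.25 to 0.53, so that their groups overlapped over the 9 pools. The count of 0 rests on the ZT14 pool, without which 77 probes passed and the lone dark pool of the first day is assumed to vary like the others. Without 1 of the other 7 pools 0 or 1 passed.

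**Figure D5:**
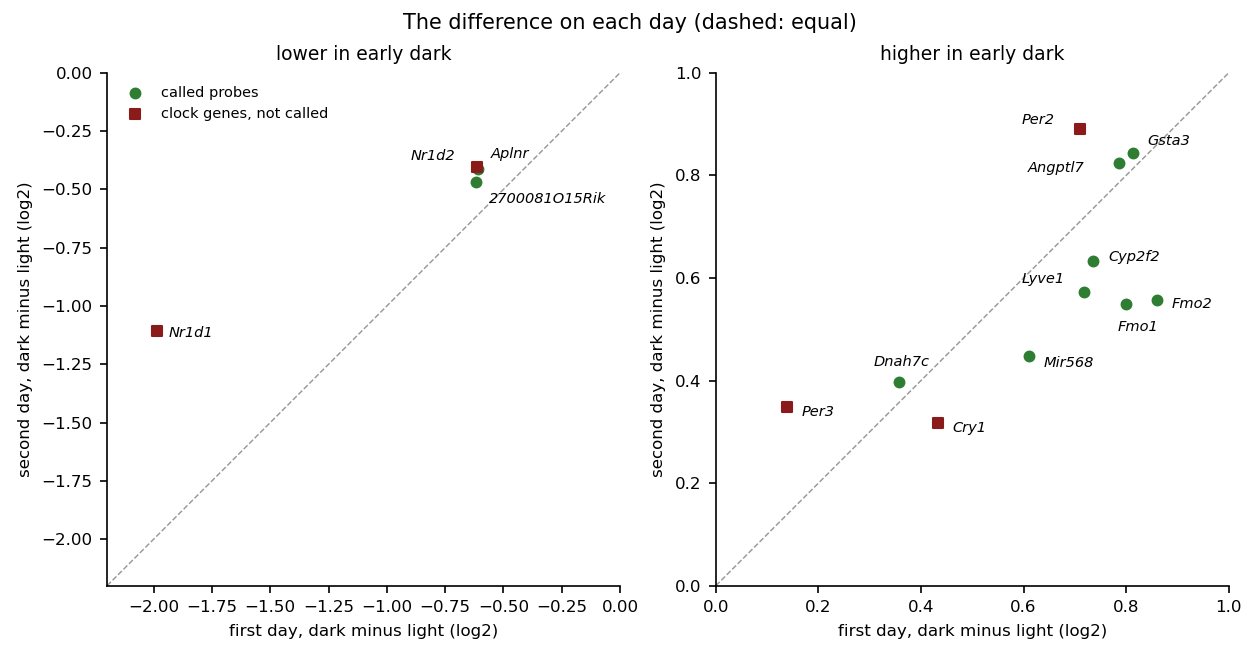
Early dark minus early light (log2) on the first day (x axis) against the second day (y axis), for the 10 called probes (green circles) and 5 clock genes that did not pass (red squares), with the lower ones at left and the higher ones at right on axes of different range; the dashed line marks equal values. Gsta3 and Angptl7 lie on the line, and Nr1d1 went from -1.99 to -1.11.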

How the data were processed

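RNA of whole back skin was hybridised to Affymetrix whole-transcript arrays of 1 colour, 13 in all with 1 per pool of 3 mice, and 9 pools entered the comparison. The values the authors deposited are probe intensities, linear as judged from their range. The submitters' processing notes name PLIER 2.0 and Affymetrix Expression Console 1.1.1 without saying what each did. Scaling between arrays and the genome build are not given in the sources used here. The number of arrays limits the precision.

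Of 35557 probes the platform annotation names 23410, of which 21789 carry 1 symbol and were tested and 1621 carry several; 12147 are unnamed here. RefSeq's mouse gene table (GRCm38.p6) held 21698 of the tested probes and updated 0 symbols. Of several probes of a gene, which concerned 999 genes, each was tested and the brightest is described. Intensities were used as deposited, as log2(value + 16), so folds understate changes of dim probes. Groups follow the labels' collection times, and limma 3.58.1 in R 4.3.3 fitted 2 group means with moderated variances and Benjamini-Hochberg adjustment over all tested probes, with calls at an adjusted p under 0.05. Hours within a phase, the 2 days, and hours as a factor were fitted in the same way. The median residual SD was 0.11 log2 with 7 residual degrees of freedom.

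The members, the 38 lists (684 of 743 genes measured) and the tests were chosen with earlier results of these data known. Named genes were all measured clock activators and repressors, the called genes, the 8 of smallest p in a direction with few calls, up to 3 members of smallest p per list, and the 2 of smallest p per direction for hours and days. Predicted genes, clones, microRNAs and smell receptors were passed over by that rule, which concerned 2 called probes, named here all the same. List members named beyond it, such as Aldh1a1, Prox1, Pecam1, Krt5 and Alb, were picked with their values in view.

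The alternatives tried were median centring, quantile normalization, pseudocounts of 1 and 64, filters at the 25th and 50th percentile, all probes, an intensity trend with a robust prior, linear time, hours or day as a factor, a muscle covariate, all 13 pools in 4 groups, stricter thresholds, and leaving out each pool. On simulated data with 200 changed probes among 21789, the fit for early dark minus early light recovered 36% of differences of 0.3 log2, 76% of 0.5, 96% of 0.7 and 98% of 1, with 4.38% false among its calls. Noise was drawn independently per probe. Benjamini-Hochberg adjustment is milder where more probes pass, and the data gave 10 calls, so these shares can overstate the recovery in the data. Python 3.11.15 with matplotlib 3.10.9 drew the figures.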

Additional observations from a re-analysis of the deposited data

Results flagged for a closer look

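Of 136 groups of values checked for a single pool far from the rest, 2 stood apart, while chance gives about 1 in 20. The mean of the fasting and feeding genes had 1 early light pool, ZT50, below the other 4, with a gap that took 0.762 of the whole range. The mean of the T and NK cell markers had 1 early dark pool, ZT14, above the other 3, with a gap of 0.86 of the range. ZT14 is also the pool without which 77 probes passed for a change between days.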

How the results depend on the processing

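The 10 calls (8 higher, 2 lower in early dark) became 2 (2 and 0) over all 35557 probes, 1 (1 and 0) at an adjusted p under 0.01, and 6 (6 and 0) at a fold of at least 1.5. With day as a block and without ZT50 there were 7 calls, 5 of them higher and 5 among the first 10. The lower count was 1 after quantile normalization, with a pseudocount of 1, with linear time and with all 13 pools in 4 groups, and 4 (adding Chil1 and Chp2) with quantile normalization and the 25th percentile filter together. Leaving out 1 pool gave 2 to 9 calls, 2 to 8 higher and 0 to 2 lower; it gave 0 to 2 for 6 h minus 2 h, 0 to 2 for 18 h minus 14 h, and 0 to 77 for the day comparison. The day comparison also gave 1 call with a pseudocount of 64, 1 with the 25th and 4 with the 50th percentile filter, and 5 with an intensity trend and robust prior. The other settings kept each count within 1.5 times its main value, and no result of any setting turned its direction while called. Quantile normalization combined with hours or with the filter was chosen after the data were seen. The cause of these changes was not tested, except that testing more probes or a stricter threshold makes the adjustment harder. No paired analysis was possible because no replicate number in the labels pairs one pool with another; day was fitted as a block instead. With 5 against 4 pools, differences near 0.3 log2 were recovered in 36% of simulated cases, a share that can be lower in the data. A gene that missed the threshold is therefore not shown to be level. Dim probes shifted upward in the dark arrays, and signal over background was not analysed here.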

Other observations

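At 22 h, outside the groups compared, the pools of the 2 days differed in genes of liver cells. Alb, the main protein of blood serum, measured 2597 at ZT22 and 10035 at ZT46, against 1027 to 4435 in the 9 pools compared. Cyp2e1, a cytochrome P450 of liver and fat, measured 695 and 2585, and Gsta3 439 and 1272. These genes were picked after their values were seen.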
